A study of Sus scrofa with 24 samples.

Results

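MEF2C, MEF2D and HDAC9 were followed in the Longissimus dorsi (LD) muscle of pigs of 2 genetic types at 2 ages. MEF2C and MEF2D code for transcription factors that switch on muscle genes, and HDAC9 codes for a repressor that binds them. The genes were taken by symbol, 3 of the 22861 genes in the deposited table, and each symbol matched 1 pig gene: ENSSSCG00000014149 for MEF2C, ENSSSCG00000006482 for MEF2D and ENSSSCG00000015368 for HDAC9. RNA from 24 male animals was sequenced, 1 library per animal and 6 animals per group. The groups were purebred Iberian (IB) newborns, Iberian x Duroc crossbred (IBxDU) newborns, and 4-month-old pigs of IB and of IBxDU. Newborns were labelled as postnatal day 1, and all dams were IB sows, mated to IB or to Duroc boars. Fewer litters than animals were sampled at birth, so some newborns were littermates. The labels do not give the litters, and the p-values below measure only the spread between these animals.

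MEF2 proteins are MADS-box factors that bind A/T-rich elements in the promoters of contractile and metabolic genes, often together with the myogenic basic helix-loop-helix factors. Class IIa histone deacetylases, to which HDAC9, HDAC4, HDAC5 and HDAC7 belong, have little deacetylase activity of their own and hold MEF2 targets silent by bringing co-repressors to them. Calcium-dependent kinases and protein kinase D phosphorylate these repressors, 14-3-3 proteins then carry them out of the nucleus, and MEF2 is released. In mouse, MEF2 also drives transcription of Hdac9, and HDAC9 takes part in the response of muscle genes to nerve supply.

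Depth ran from 20.0 to 35.9 M reads or read pairs per library, with a mean of 27.0 M (SD 4.15 M). Values are given here as scaled RPKM, that is reads divided by gene model length and by library total, after the libraries were brought to a common level by a trimmed mean. This scaling was not a small step: its factors ran from 1.02 to 1.64 in the newborn libraries and from 0.510 to 0.978 in those of 4 months. ACTA1 and TNNC2, the 2 fibre markers of 6 listed that could be matched, summed to medians of 34577 and 35864 scaled RPKM in IB and IBxDU newborns and to 134884 and 107875 at 4 months. The listed genes accounted for 99.3% to 99.5% of the reads of 8 libraries (the high-share kind) and for 88.0% to 96.2% of those of the remaining 16 (the lower-share kind). The 8 were unevenly spread, with 4 among the IBxDU newborns, 1 among the IB newborns, 1 among the IB pigs of 4 months and 2 among the IBxDU pigs of that age. In muscle RNA of this kind, fewer cells of a type and less RNA per cell cannot be told apart.

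The 3 genes stood at very different levels. On the length-corrected RPKM scale MEF2C was above MEF2D in 22 of the 24 libraries, and HDAC9 was below both in all 24. MEF2C rested on 704 to 8689 reads per library, MEF2D on 3283 to 8710 and HDAC9 on 26 to 659, so counting error weighs most on HDAC9. HDAC9 also differed most between animals of a group, with a coefficient of variation from 59.9% to 77.1% against 20.8% to 31.7% for MEF2C and 9.45% to 26.4% for MEF2D. The gene model lengths behind these values were not given but recovered, as the smallest that made reads whole in every library. They were 2172 bases for MEF2C, 5690 for MEF2D and 2476 for HDAC9. A whole multiple of a length would fit as well, with the read numbers multiplied alike. A short HDAC9 product that lacks the deacetylase domain is known, and 1 value per gene does not separate it from the full-length form.

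**Figure D1:**
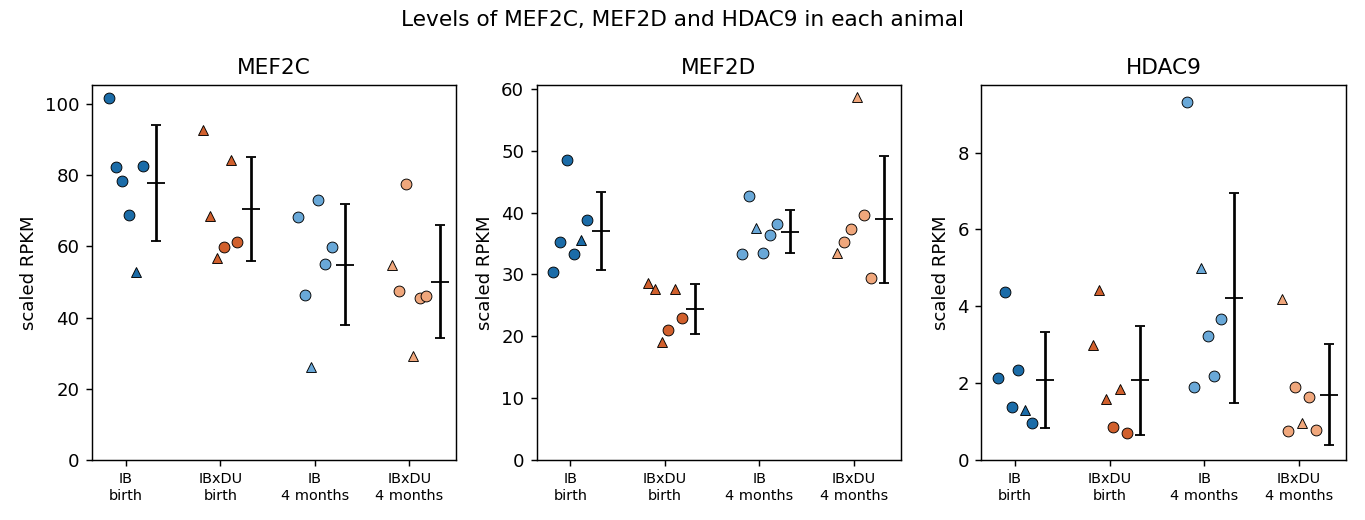
Scaled RPKM of MEF2C, MEF2D and HDAC9 (vertical axes) in the 6 animals of each group (horizontal axes). Each point is 1 animal, triangles mark the 8 libraries with over 99% of their total in the listed genes, and bars give the group mean with SD. The 6 IBxDU newborns lie below every other animal for MEF2D, between 19.0 and 28.7. In the RPKM as deposited, not shown, they ran from 25.9 to 44.0 and overlapped each other group.

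MEF2C, which in muscle acts in fibre maturation and sarcomere upkeep, was higher at birth than at 4 months by a margin just under the fold limit used here. In IB newborns it ran from 52.8 to 102 scaled RPKM with a median of 80.4 (mean 77.8 ± 16.2, SD, n = 6), and in IBxDU newborns from 56.6 to 92.7 with a median of 64.9 (70.5 ± 14.7). At 4 months it ran from 26.2 to 73.1 in IB pigs, median 57.5 (54.9 ± 16.9), and from 29.3 to 77.6 in IBxDU pigs, median 46.7 (50.1 ± 15.9). The order of the 4 means was IB newborns, IBxDU newborns, IB pigs of 4 months and IBxDU pigs of 4 months, and neighbours in that order differed by less than 1 SD, except IBxDU newborns and IB pigs of 4 months, whose means lay about 1 SD apart. Newborns and pigs of 4 months overlapped in both genetic types. Over both types the difference was 0.54 ± 0.16 (SE) on the log2(scaled RPKM + 0.1) scale, or 1.45-fold, with an adjusted p of 0.00410 (limma, Benjamini-Hochberg over all genes tested). A gene counted as called when its limma p did not exceed 0.01 and its fold reached 1.5, so MEF2C was not called, and neither were MEF2D and HDAC9, in a comparison that called 45.3% of the 12180 genes tested. At an adjusted p under 0.05, which 65.8% of genes reached, MEF2C and MEF2D passed and HDAC9 did not. MEF2D no longer passed in the lower-share libraries alone (−0.17 ± 0.15, adjusted p = 0.31, limma), or without IBxDU 425, 426, 429 or 732, with limma adjusted p from 0.053 to 0.062.

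With all animals the MEF2C difference between ages was 0.56 ± 0.23 in IB pigs, where 31 of the 36 pairs of a newborn and an older pig had the newborn higher, and 0.51 ± 0.21 in IBxDU pigs, where 32 of 36 did. In the lower-share libraries alone it was 0.47 ± 0.15 in IB and 0.19 ± 0.23 in IBxDU. The two-sided exact permutation p over all animals was 0.0390 in each, where 6 against 6 animals allow 0.00216 at the smallest. Between genetic types MEF2C differed by −0.13 ± 0.17 at birth and −0.09 ± 0.26 at 4 months (IBxDU minus IB), and the interaction of genetic type and age was −0.02 ± 0.32 (adjusted p = 0.99, limma). Leaving out 1 library moved the age difference over both types between 0.45, without IB 903, and 0.59, without IBxDU 714, where it passed the fold limit. Within IBxDU it was called without IBxDU 714 (0.64). IB 903 and IBxDU 732, the animals with the lowest MEF2C, ranked 3 and 1 of 24 for the summed fibre markers, at 149893 and 275671 scaled RPKM. Rank 2 was IB 889, at 153265, with a MEF2C of 46.4. The libraries of IB 903 and IBxDU 732 were both of the high-share kind. Mean MEF2C was lower in that kind in IB newborns (52.8, 1 library, against 82.8). So it was at 4 months in IB (26.2, 1 library, against 60.6) and IBxDU (42.0 against 54.1). In IBxDU newborns it was higher (75.5 against 60.6). The parts of fibre RNA and of library kind in MEF2C were not tested.

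MEF2D, the other MEF2 gene measured at a high level, was low in IBxDU newborns, and with the scaling used here the means of the remaining groups lay close together. IBxDU newborns ran from 19.0 to 28.7 scaled RPKM with a median of 25.2 (mean 24.5 ± 4.04, SD, n = 6). IB newborns ran from 30.4 to 48.5 with a median of 35.4 (37.0 ± 6.28). At 4 months IB pigs ran from 33.3 to 42.7, median 37.0 (36.9 ± 3.49), and IBxDU pigs from 29.5 to 58.7, median 36.2 (38.9 ± 10.3). With this scaling every IBxDU newborn was below every animal of the other groups, and the means of those groups differed from each other by less than 1 SD. In the RPKM as deposited IBxDU newborns, from 25.9 to 44.0, overlapped each other group. Those ran from 36.0 to 55.3 in IB newborns and, at 4 months, from 24.3 to 28.1 in IB and from 25.0 to 32.7 in IBxDU. How many genes set 1 group apart from all others was not counted.

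At birth MEF2D was 1.498-fold lower in IBxDU than in IB pigs, a log2 difference of −0.58 ± 0.15. With scaling the 2 groups did not overlap, as for 1.24% of the 12290 genes tested, and the two-sided exact permutation p was 0.00216, the smallest that 6 against 6 animals can give. In limma the p was 0.00146 and the fold fell just short of the limit, so MEF2D was not called, and no member was, in a comparison that called 4.22% of genes. The adjusted p was 0.12. No gene at all (0%) passed an adjusted p of 0.05 in limma at birth, where the lowest adjusted p was 0.0725 and 2299 genes lay under 0.05 before adjustment. Voom on the recovered reads also gave 0, whereas 1 fit of all 4 groups gave 357 genes, MEF2D among them at −0.59 ± 0.15 and an adjusted p of 0.0299. The uneven spread of the high-share libraries moved with this contrast. Among the other libraries alone, 5 IB newborns between 30.4 and 48.5 and 2 IBxDU newborns at 21.0 and 22.9, the difference was −0.73 ± 0.21 and was called. More genes were called there, 946 of 11736 tested against 519 of 12290 with all newborns. Leaving out 1 library moved the MEF2D difference between −0.64 and −0.50, and it passed the fold limit without any 1 of IB 323, 330, 431 and 503 and IBxDU 402, 412 and 427.

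At 4 months the genetic types did not differ in MEF2D beyond their spread (0.07 ± 0.14, 18 of 36 pairs with the IBxDU pig higher). Between ages MEF2D followed the genetic type. Within IBxDU it was 1.59-fold lower at birth, −0.67 ± 0.18 with an adjusted p of 0.00675 (limma), although at 0.23 without scaling, and it was the 1 member called in a comparison that called 38.8% of genes. With scaling newborns and 4-month pigs did not overlap, as for 26.2% of genes, and without IBxDU 732, the animal with 58.7, the difference of −0.54 fell short of the fold limit. Within IB the difference was 0.00 ± 0.12 and 16 of 36 pairs had the newborn higher, whereas quantile normalization gave 0.41 ± 0.11 (adjusted p = 0.0084, limma) and no scaling 0.81 ± 0.13. No member was called within IB, where 42.9% of genes were called and 32.8% did not overlap. The interaction, the test of whether the type difference changed with age, was −0.64 ± 0.21 for MEF2D with an adjusted p of 0.19 (limma). It passed an adjusted p of 0.05 in 0.0241% of genes and in no member.

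HDAC9 was the member that varied most, and its highest values were in IB pigs of 4 months. They ran from 1.89 to 9.32 scaled RPKM with a median of 3.45 (mean 4.21 ± 2.74, SD, n = 6). IBxDU pigs of that age ran from 0.743 to 4.18 with a median of 1.29 (1.70 ± 1.31). Newborns lay between, from 0.950 to 4.38 in IB (median 1.74, 2.08 ± 1.24) and from 0.700 to 4.43 in IBxDU (median 1.71, 2.07 ± 1.42). All 4 groups overlapped, 4 of the 6 IBxDU pigs of 4 months lay below every IB pig of that age, and the means of both newborn groups and of the IBxDU pigs of 4 months were within 1 SD of each other.

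At 4 months HDAC9 was 2.41-fold lower in IBxDU than in IB pigs, −1.27 ± 0.44 on the log2 scale, and the IBxDU animal was the higher in 5 of 36 pairs. The exact permutation p was 0.0260. In limma the p of 0.0114 missed the limit of 0.01 by little and the adjusted p was 0.43. HDAC9 came into this description with its difference in growing pigs already known from these libraries, so the test is not independent evidence of it. No member was called, in a comparison that called 1.4% of the 10728 genes tested, with 0.121% at an adjusted p under 0.05 and 0.708% without overlap. The p lay close enough to the limit that single libraries moved the call. HDAC9 was called without IBxDU 702 (−1.58), the animal with the highest value of its group, and without IB 889 (−1.45) or IB 907 (−1.42). It was −1.001 without IB 816, the animal with 9.32. In the lower-share libraries alone, with 5 IB pigs between 1.89 and 9.32 and 4 IBxDU pigs between 0.743 and 1.90, it was −1.43 ± 0.42 and was called, with an adjusted p of 0.17. More genes were called there, 282 of 10593 tested against 150 of 10728 with all animals. Reads behind HDAC9 numbered 26 to 207 in the IBxDU and 71 to 659 in the IB libraries of 4 months.

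Between ages HDAC9 did not differ over both types (−0.34 ± 0.36, adjusted p = 0.42, limma). Within IB the log2 difference was −0.94 ± 0.39, with the newborn higher in 7 of 36 pairs and an exact permutation p of 0.0606, and it was called without IB 330 (−1.18), the newborn with 4.38. Within IBxDU the difference was 0.26 ± 0.47 and within newborns, between types, −0.09 ± 0.45. The interaction was 1.22 ± 0.65 with an adjusted p of 0.43, and 0.23 ± 0.72 in the lower-share libraries alone. HDAC9 moved with the kind of library among IBxDU newborns, where the 4 high-share libraries held 1.58 to 4.43 scaled RPKM and the other 2 held 0.700 and 0.867. In the lower-share libraries alone the difference between newborns was −1.23 ± 0.49 (adjusted p = 0.20, limma) and that between ages within IBxDU was −0.53. The part of library kind in these values was not tested.

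**Figure D2:**
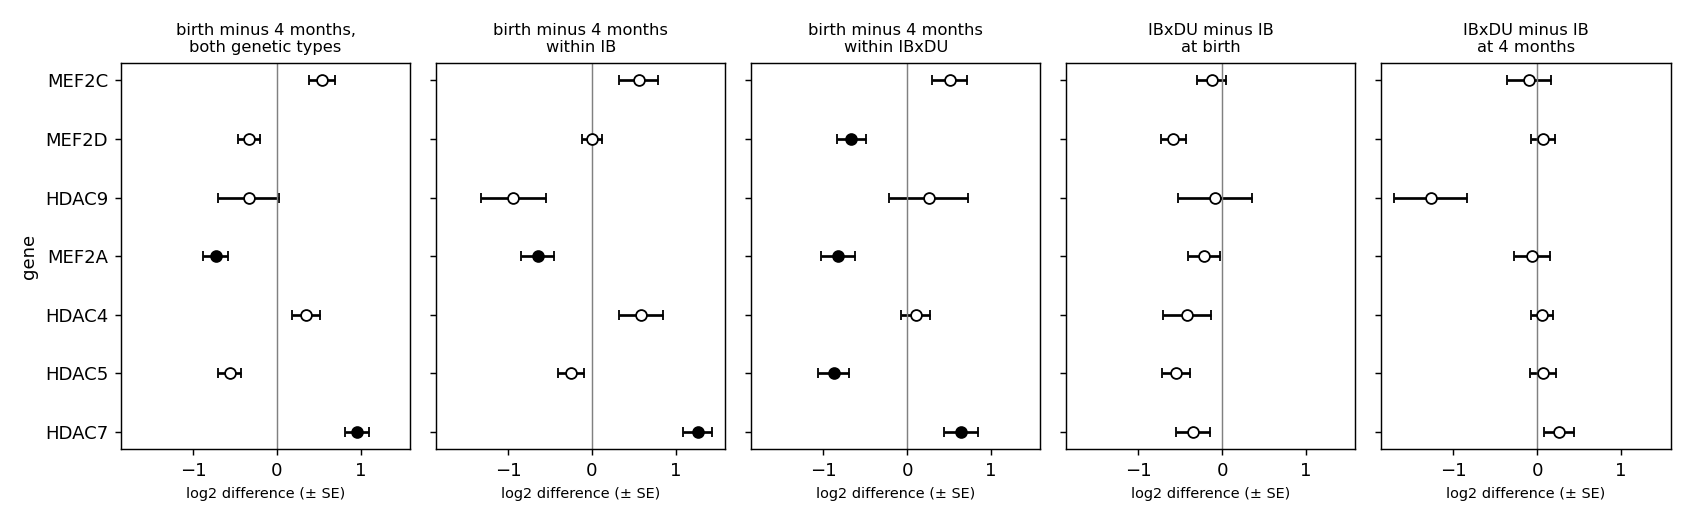
Log2 differences with SE (horizontal axes) of MEF2C, MEF2D, HDAC9 and their close relatives (vertical axis) in 5 comparisons, from limma on scaled RPKM. Filled points passed p of at most 0.01 and 1.5-fold. Of the 3 members MEF2D within IBxDU alone is filled, at −0.67 (0.23 without scaling), and HDAC9 stands farthest from 0 at 4 months, at −1.27.

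The direction of the age differences depended on the scaling for MEF2D and HDAC9. In the RPKM as deposited MEF2D was higher at birth, at 41.0 ± 9.34 against 27.9 ± 2.62 (SD, n = 12). In IB pigs its deposited values did not overlap, from 36.0 to 55.3 at birth and from 24.3 to 28.1 at 4 months. The share of all genes without overlap was not counted in these values, and with scaling it was 32.8% within IB. Without scaling 91.0% of the genes called within IB were higher at birth. Without scaling the median difference of all genes tested was 0.91, against 0.10 with it, so that most genes appeared higher at birth. The unscaled differences were 1.39 for MEF2C, 0.52 for MEF2D and 0.46 for HDAC9. Relative to the median of all genes the members kept their places with and without scaling, at 0.44 and 0.48 for MEF2C, −0.43 and −0.38 for MEF2D, and −0.44 and −0.44 for HDAC9. Quantile normalization gave 0.95 for MEF2C, 0.04 for MEF2D and −0.50 for HDAC9, with the median of all genes at 0.07. The difference of MEF2C was above 0 under all 4 ways of scaling, and those of MEF2D and HDAC9 were not of one sign.

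**Figure D3:**
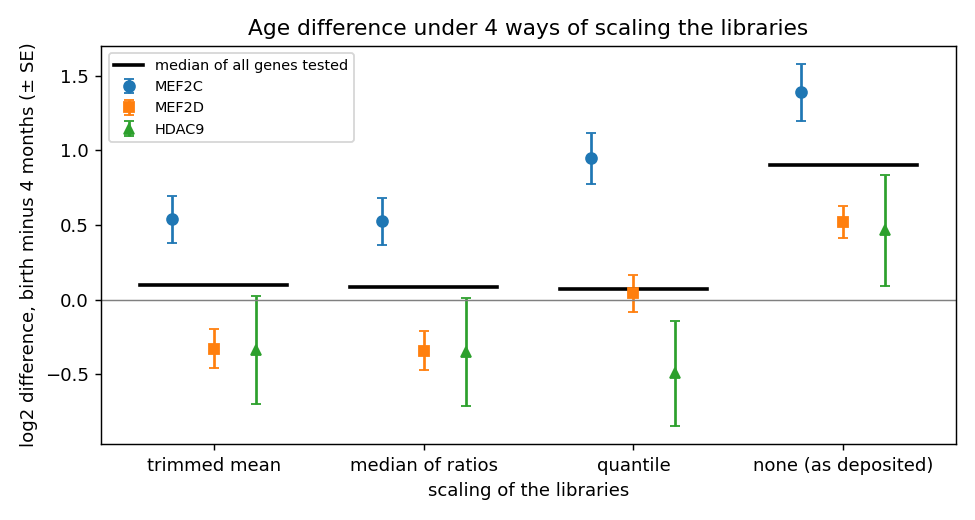
Log2 difference between birth and 4 months with SE (vertical axis) for MEF2C, MEF2D and HDAC9 under 4 ways of scaling the libraries (horizontal axis), with the median over all genes tested as a black line. Without scaling the line stands at 0.91 and MEF2D at 0.52. With the trimmed mean they stand at 0.10 and −0.33.

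Ratios between the genes within a library are free of the scaling. The MEF2C/MEF2D ratio of RPKM ran from 2.48 to 3.24 in IBxDU newborns (median 2.92) and from 1.48 to 3.34 in IB newborns (median 2.10). At 4 months it ran from 0.499 to 2.08 in IBxDU pigs (median 1.45) and from 0.698 to 2.19 in IB pigs (median 1.54). Every IBxDU newborn was above every IBxDU pig of 4 months, by 1.18 ± 0.30 on the log2 scale (exact permutation p = 0.00216, adjusted p = 0.0260 over the 12 ratio tests). Without any 1 IBxDU newborn the adjusted p of the exact permutation test was 0.052, with differences from 1.14 to 1.22. The groups still did not overlap, and the exact permutation p was 0.00433 in each of these runs. Without IBxDU 714 or IBxDU 732, which also removes 1 animal, the exact permutation p stayed at 0.00216 (adjusted p = 0.0260). The reason for the rise was not tested. The difference within IB was 0.56 ± 0.30 and that between newborns of both types 0.46 ± 0.18, with adjusted p of 0.16 and 0.10 from the same exact permutation tests, and the latter was 0.59 with an adjusted p of 0.013 without IB 323. In the 2 libraries with MEF2D above MEF2C, IB 903 and IBxDU 732, the ratio was at its lowest.

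HDAC9 stood well below either MEF2 gene in every library. Its median ratio to MEF2C was 2.28% in IB newborns, 2.49% in IBxDU newborns, 5.27% in IB pigs of 4 months and 2.85% in IBxDU pigs of 4 months. Its median ratio to MEF2D, as a fraction, was 0.0533, 0.0750, 0.0964 and 0.0336 in the same order, with highest values of 0.124, 0.160, 0.280 and 0.125. Between genetic types at 4 months the log2 differences were −1.20 ± 0.51 and −1.36 ± 0.55, both with an adjusted p of 0.10 (exact permutation), and without IBxDU 702 they were −1.46 and −1.70 with an adjusted p of 0.035. Between ages within IB the HDAC9/MEF2C difference was −1.50 ± 0.49 with an adjusted p of 0.078 (exact permutation), and −1.72 with 0.026 without IB 330. With all animals none of the 8 tests with HDAC9 passed. The highest HDAC9/MEF2C ratio, 19.0%, was that of IB 903.

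**Figure D4:**
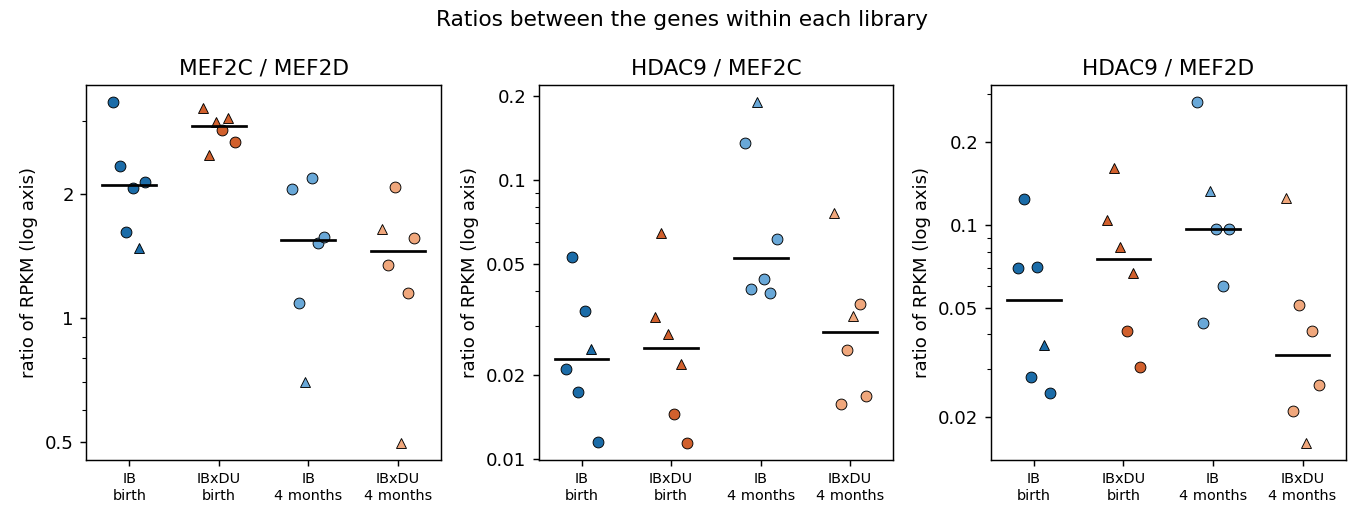
Ratios of RPKM between the 3 genes within each library (vertical log axes) in the 4 groups of 6 animals (horizontal axes). Points are animals, triangles are the libraries with the higher share in listed genes, and lines are medians. The MEF2C/MEF2D points of IBxDU pigs do not overlap between birth, 2.48 to 3.24, and 4 months, 0.499 to 2.08.

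Co-variation between animals was looked at within each group of 6, for 3 pairs of genes. MEF2C and MEF2D went together in IBxDU newborns, with Pearson r = 0.88 (exact permutation p = 0.0194) and Spearman rho = 0.94 (exact permutation p = 0.0167). Neither passed adjustment over the 12 correlations (0.23 and 0.20), and r was 0.99 in the 4 animals left without the 2 farthest from the median of MEF2C. The r of the unscaled values, 0.93, did pass (0.017). Unscaled, both genes share the factor of each library, from 1.23 to 1.64 here, which can itself raise r. That value therefore does not decide whether the 2 genes go together. Of these 6 libraries 4 were of the high-share kind and 2 of the other, too few for a value within each kind. In the other groups the pair had r of −0.14 in IB newborns, −0.50 in IB and −0.62 in IBxDU pigs of 4 months (exact permutation p of 0.78, 0.33 and 0.21). Their rho was −0.26, −0.66 and −0.49 (exact permutation p of 0.66, 0.18 and 0.36), and without the 2 farthest animals r was 0.35, −0.92 and −0.15. HDAC9 had r between 0.04 and 0.55 with MEF2C and between −0.62 and 0.66 with MEF2D, and rho between 0.03 and 0.60 and between −0.60 and 0.71. The smallest exact permutation p of these 8 pairs was 0.17 for r and 0.14 for rho, and without the 2 farthest animals r ran from −0.69 to 0.79. Over the 12 newborns, after subtracting the mean of each genetic type, r was 0.36 for MEF2C with MEF2D, 0.41 for HDAC9 with MEF2C and 0.19 for HDAC9 with MEF2D. Over the 12 pigs of 4 months the same values were −0.51, 0.25 and −0.25. These points share the library scaling, and r over 12 is a description.

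**Figure D5:**
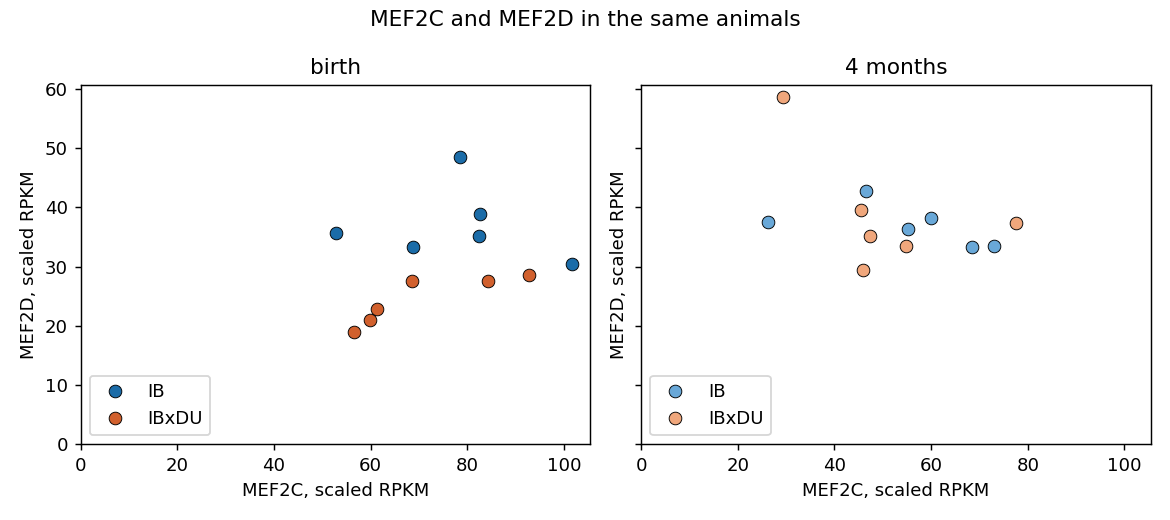
MEF2D against MEF2C in scaled RPKM in the same animals, newborns on the left and pigs of 4 months on the right, 1 point per animal. IBxDU newborns lie below IB newborns along the MEF2D axis and rise together on both axes (r = 0.88, n = 6). The point highest on MEF2D at 4 months is IBxDU 732, at 58.7.

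The genes whose pattern was most like each member were taken among the 9982 genes with a mean over 0.5 RPKM in each of the 4 groups, over the 24 libraries and after subtracting group means. For MEF2C these were BMPR2, a type II receptor of bone morphogenetic proteins (r = 0.89), NEK1, a kinase of cilia and DNA repair (0.84), and SEMA3C, a secreted guidance protein (0.84). For MEF2D they were UBAP2 (0.82), ARFIP2, an arfaptin of the Golgi (0.79), and ATG9A, a membrane protein of autophagy (0.78). For HDAC9 they were KIAA1217 (0.78), PRKCQ, the protein kinase C theta abundant in muscle and T cells (0.75), and TECRL (0.74). The members were far from one another in these rankings: MEF2D was number 6502 of the genes most like MEF2C, and HDAC9 number 2460. With group means left in, BMPR1A, TOP2B and SSPN led for MEF2C (0.87, 0.86 and 0.86), SPPL3, TLN2 and UBTD1 for MEF2D (0.87, 0.87 and 0.86), and KIAA1217, PRKCQ and MSRA for HDAC9 (0.73, 0.69 and 0.64). Depth and scaling are shared by all these values, and no test was made of them.

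The closest relatives of the members moved with age in both directions. MEF2A, the third MEF2 gene measured, was lower at birth, at 11.3 ± 2.80 against 18.9 ± 4.65 scaled RPKM (SD, n = 12; −0.73 ± 0.15, adjusted p = 0.000107, limma), although its difference was 0.11 without scaling and, at −0.54, short of the fold limit with quantile normalization. MEF2B was not analysed here. Of the other class IIa deacetylases HDAC7 was higher at birth, at 5.90 ± 1.42 against 2.96 ± 0.63 (0.96 ± 0.14, adjusted p = 2.03e-06), and was called. HDAC5 was 1.48-fold lower at birth (−0.56 ± 0.14, adjusted p = 0.000944), short of the fold limit, and stood at 0.29 without scaling. It was called without any 1 of IB 330, 345, 431, 504, 889 and 905 and IBxDU 708 (−0.62 to −0.59), and was −0.37 ± 0.16 in the lower-share libraries alone. HDAC4 differed by 0.35 ± 0.17 (adjusted p = 0.066, limma), with adjusted p of 0.015 and 0.020 without IB 323 and IBxDU 402, and was called at 1.17 without scaling. HDAC9 was the lowest of the 4 deacetylases at birth on the RPKM scale, at a mean of 2.07 against 3.70 for HDAC4 and 18.9 for HDAC5, and at 4 months the means of HDAC9, HDAC4 and HDAC7 were 2.95, 2.71 and 2.96.

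In IBxDU newborns HDAC5 had a pattern close to that of MEF2D. It ran from 12.5 to 22.0 scaled RPKM there and from 16.8 to 27.6 in IB newborns, 1.46-fold lower (−0.55 ± 0.17, adjusted p = 0.15, limma), with 2 of 36 pairs the other way, and was called without IB 323 (−0.63), IB 503 (−0.60) or IBxDU 412 (−0.65). Within IBxDU it was called as lower at birth (−0.88 ± 0.18, adjusted p = 0.00134, limma) without overlap, although at 0.02 without scaling. In that comparison 38.8% of all genes were called and 26.2% did not overlap. MEF2A, HDAC4 and HDAC7 differed between newborns by −0.22 ± 0.19, −0.42 ± 0.29 and −0.35 ± 0.20. None of the 7 genes of both families was called between genetic types at either age. The newborn comparison and the one within IBxDU share the IBxDU newborns.

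The proteins that move class IIa deacetylases out of the nucleus changed in 2 directions with age. Of 18 genes listed, 12 were matched and tested, with 4 called as higher at birth and 3 as lower, against 24.3% and 21% of all genes. CAMK2G, a subunit of calcium/calmodulin kinase II, was 13.7 ± 5.20 at birth and 57.0 ± 6.51 scaled RPKM at 4 months (−2.12 ± 0.15), and CAMK2D (−1.24 ± 0.16, not called at −0.39 without scaling) and CAMK2A were lower at birth too. PRKD1, protein kinase D, was higher at birth, at 5.82 ± 1.86 against 1.34 ± 0.44 (2.05 ± 0.19). The 14-3-3 genes YWHAQ (1.11 ± 0.09), YWHAH and YWHAZ were higher at birth. The median difference of the 12 was 0.12, beside 0.10 for all genes.

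Co-activators of MEF2 and kinases and phosphatases that activate it lay lower at birth. Of 15 listed, 11 were tested and 7 were called as lower, none as higher, against 21% and 24.3% of all genes, and their median difference was −0.73 beside 0.10 for all genes. PPP3CB, a catalytic subunit of calcineurin, was 28.0 ± 4.03 against 101 ± 16.4 (−1.84 ± 0.10), the acetyltransferase KAT2B differed by −1.95 ± 0.16, PPP3CA by −0.98 ± 0.14 and SMARCD3, a subunit of the SWI/SNF remodeller, by −0.79 ± 0.09, although without scaling PPP3CA was at −0.13 and SMARCD3 at 0.06, neither called, and SMARCD3 was not called with quantile normalization (−0.34). Of the 9 co-repressors listed, 6 were tested and TBL1XR1 alone was called, lower at birth (−0.63 ± 0.18), and at 0.20 without scaling. Its call was lost with library kind as a term (−0.52), with a pseudocount of 0.5 RPKM (−0.57) and without IBxDU 425 (−0.58). The median of the 6 was 0.15.

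Known muscle targets of MEF2 were mostly lower at birth. Of 21 listed, 10 were tested, 8 were called as lower and KLF4 as higher, against 21% and 24.3% of all genes, and the median difference was −1.26 beside 0.10 for all genes. MYOZ1, a Z-disc protein of fast fibres, was 1325 ± 426 at birth and 5422 ± 1458 scaled RPKM at 4 months (−2.05 ± 0.17). TNNC1, the slow troponin C, differed by −1.76 ± 0.17, MYOM1 of the M-band by −1.30 ± 0.13 and HRC, a calcium-binding protein of the sarcoplasmic reticulum, by −1.23 ± 0.15. Without scaling MYOM1 (−0.44) and HRC (−0.37) were not called, and with quantile normalization TNNC1 (−0.51) was not. Within the types 7 and 8 of the 10 were called as lower at birth in IB and IBxDU, where 42.9% and 38.8% of all genes were called in either direction. KLF4 was called as higher at birth in IB (1.94 ± 0.33) and not in IBxDU (0.62 ± 0.24), and its interaction of −1.31 ± 0.43 had an adjusted p of 0.21 (limma). The fibre markers moved the same way over both types, ACTA1 by −1.82 ± 0.22 and TNNC2 by −1.80 ± 0.15, and the part of fibre RNA in these differences was not tested.

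Of the genes that class IIa deacetylases are known to govern in denervated muscle, 4 of 10 were tested. CHRNA1, the alpha subunit of the muscle acetylcholine receptor, which rises on denervation, was higher at birth (0.82 ± 0.19), and CHRNE, the subunit of the adult receptor, was lower (−0.99 ± 0.22), although not called without scaling (−0.15) or in the lower-share libraries alone (−0.57). Among the basic helix-loop-helix partners of MEF2, 5 of 7 were tested. TCF3 (1.03 ± 0.12) and TCF4 (0.74 ± 0.15, not called at 0.58 with quantile normalization) were higher at birth and MYF6, the factor of mature fibres, was lower (−2.51 ± 0.32). Beside both lists, 24.3% of all genes were called as higher at birth and 21% as lower.

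Between genetic types few of the pathway genes were called, and none passed an adjusted p of 0.05. At birth CREBBP, a histone acetyltransferase that co-activates MEF2, was lower in IBxDU (5.29 ± 0.553 against 8.53 ± 2.43, −0.63 ± 0.18), as were TBL1XR1 (−0.68 ± 0.16), SLC2A4, the insulin-responsive glucose transporter (−1.04 ± 0.25), HRC (−0.60 ± 0.19) and CHRNE (−0.65 ± 0.19), with adjusted p from 0.10 to 0.16 (limma). XIRP2, an actin-binding protein of striated muscle, was higher (399 ± 193 against 152 ± 78.4, 1.47 ± 0.40). These were 1 of 11 co-activators, 1 of 6 co-repressors, 3 of 10 muscle targets and 1 of 4 denervation genes, where 4.22% of all genes were called. The call of SLC2A4 was kept under every alternative run. In the lower-share libraries alone the other 5 were not called, with CREBBP at −0.70, TBL1XR1 at −0.79, HRC at −0.68, CHRNE at −0.42 ± 0.30 and XIRP2 at 0.94 ± 0.58. With library kind as a term CREBBP (−0.62), HRC (−0.54) and XIRP2 (1.32) were not called, and without scaling CREBBP (−0.46), TBL1XR1 (−0.51), HRC (−0.43) and CHRNE (−0.48) were not. HRC was also lost with quantile normalization (−0.51) and CHRNE in the fit of all 4 groups (−0.66). CREBBP was lost without IB 431 (−0.51), HRC without any 1 of IB 323, 330 and 345 and IBxDU 425, 427 and 429 (−0.59 to −0.47), and CHRNE without any 1 of IB 330, 503 and 504 and IBxDU 402, 412 and 425 (−0.63 to −0.56). Within IBxDU, CREBBP (−1.06 ± 0.13), EP300 (−0.91 ± 0.15) and SMYD1, a methyltransferase of the sarcomere (−1.64 ± 0.23), were among the genes lower at birth, although CREBBP (−0.17) and EP300 (−0.019) were not called without scaling. At 4 months KLF4 alone was called, higher in IBxDU (5.03 ± 1.59 against 2.53 ± 0.742, 0.97 ± 0.25, adjusted p = 0.27). The interaction called none of these lists' genes.

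Markers of other cells were read beside these results. Beside MEF2D and HDAC5 at birth, 1 of 5 leukocyte markers (CSF1R, −0.92 ± 0.24) was called lower in IBxDU. None of 3 fibroblast, 3 endothelial, 2 fibre and 2 satellite cell markers was called lower. CNN1, 1 of 3 smooth muscle markers, was called higher (1.37 ± 0.29). Between types at birth 4.22% of all genes were called. Summed leukocyte markers ran from 10.24 to 17.1 scaled RPKM in IB and from 6.77 to 14.4 in IBxDU newborns. Beside MEF2C between ages, the fibroblast collagens COL1A2 and COL3A1 (2 of 3 markers) were called higher at birth. So were KDR (1 of 3 endothelial markers) and CD79B (1 of 5 leukocyte markers, at means of 0.145 and 0.224 scaled RPKM in IB and IBxDU pigs of 4 months). Both fibre markers, PTPRC and CD68 (2 of 5 leukocyte markers) and CDH15 (1 of 2 satellite cell markers) were called lower. Of all genes 24.3% were called higher at birth and 21% lower. None of these markers was at 0 in any library, and the part of cell make-up in these differences was not tested.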

How the data were processed

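The authors used CLC Genomics Workbench to map the mRNA reads to the Sscrofa10.2 build, and the deposited table holds 1 RPKM value per gene and library. The steps between low RPKM values gave back each library's total and its whole reads. The length of each gene was taken as the smallest whole number that made its reads whole in every library, within 0.001 reads. With lengths chosen so, every value of the 17846 genes above 0 came out whole (100%). This is therefore not an independent check of the recovery. Totals, 20.0 to 35.9 M, count reads or read pairs, which the sources used here do not separate.

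Scaling factors used the genes above 0.5 RPKM: the highest and lowest 30% of their log ratios to the mean library were dropped and the rest averaged. They were set over all 24 libraries for levels and over the libraries compared for tests. On log2(scaled RPKM + 0.1), each gene that averaged over 0.5 RPKM in 1 group or more was tested with limma 3.58.1 in R 4.3.3, since the values are not counts. Calls used p of at most 0.01 and 1.5-fold. Fold changes on this scale understate low genes. Ratios and correlations used two-sided exact permutation tests over every regrouping (NumPy 2.4.6), adjusted over 12 each. All 24 columns were used.

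Symbols came from a table of gene names that matched 11450 IDs and 77 of the 123 listed symbols. The members and lists were chosen with earlier results of these data known. Named pathway genes are the members' families, up to 4 called genes per list and comparison by smallest p, and the genes most like each member. Alternatives were other scalings (also none), filters, pseudocounts, fits and covariates, voom on recovered reads, and each library left out. The result of 1 marker list is not reported here.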

Additional observations from a re-analysis of the deposited data

Results flagged for a closer look

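In 6 of the 40 groups of 6 animals that were looked at, 1 animal stood apart from the rest of its group by Dixon's ratio. The ratio was taken on values that were not logged, unlike the tests. Chance does this in about 1 in 20 groups where values are normally distributed, which was not checked. The groups were also not independent, since the HDAC9 ratios reuse the HDAC9 values, so the count is not set against that rate. All 6 values were of IBxDU pigs. Animal 732 of the 4-month group had the highest MEF2D of its group, 58.7 scaled RPKM with the next animal at 39.6, and the lowest HDAC7, 2.16 with the next at 3.18. Its scaling factor of 0.510 was the lowest of the 24 libraries and its summed fibre markers the highest. Animal 702 of the same group had an HDAC9 of 4.18 with the next at 1.90, an HDAC9/MEF2C ratio of 0.0763 with the next at 0.0358, and an HDAC9/MEF2D ratio of 0.125 with the next at 0.0510. Its summed fibre markers, 76402 scaled RPKM, were the lowest at 4 months. Newborn 412 had an HDAC5 of 22.0 scaled RPKM with the next at 15.9. All 3 animals had libraries of the high-share kind, and the part of that kind in these values was not tested.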

How the results depend on the processing

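Without scaling, the differences between ages over both types were 1.39 for MEF2C, now called, and 0.52 for MEF2D, 0.46 for HDAC9, 0.20 for TBL1XR1, 0.062 for SMARCD3, 0.29 for HDAC5 and 0.11 for MEF2A, all of the opposite sign. Within IB they were 0.81 for MEF2D and 1.37 for MEF2C, both called, and 0.026 for SMARCD3. Within IBxDU they were 0.23 for MEF2D, 1.41 for MEF2C, called, 0.015 for TBL1XR1, 0.017 for HDAC5 and 0.070 for MEF2A. Between types they were 0.048 for MEF2C and 0.083 for HDAC9 at birth and 0.0078 for MEF2C at 4 months, and the MEF2C interaction was 0.040. The unscaled r was −0.14 for HDAC9 with MEF2C in IB newborns, 0.22 and 0.59 for HDAC9 with MEF2D in IB and IBxDU pigs of 4 months, and 0.13 for MEF2C with MEF2D in the latter. Without scaling 91.2%, 81.6%, 86.7%, 91.0% and 91.4% of called genes were higher in the first group named, against 53.6%, 46.4%, 74.7%, 53.0% and 48.8% (age, types at birth, types at 4 months, age in IB, age in IBxDU), and 7370 genes were called within IBxDU in place of 4767.

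Quantile normalization gave MEF2D 0.041 and MEF2C 0.95 between ages, MEF2D −0.59 at birth and HDAC9 −1.36 at 4 months, MEF2C 0.97 within IB, and 0.93 for MEF2C, −0.32 for MEF2D and −0.029 for HDAC4 within IBxDU. HDAC9 with MEF2D had r = 0.16 in IBxDU pigs of 4 months, and 55.9% of genes called at that age were higher in IBxDU. HDAC9 at 4 months was called at −1.29 with median of ratios scaling, −1.32 in a fit of all 4 groups, −1.38 with library kind as a term, −1.43 in the lower-share libraries and −1.40 with voom. MEF2D at birth was called at −0.59 in the fit of all 4 groups, −0.64 with library kind as a term and −0.73 in the lower-share libraries, where 60.5% of genes called at birth were higher. MEF2D within IB was −0.032 with median of ratios and −0.0082 in the fit of all 4 groups. With library kind as a term MEF2C was 0.60 between ages, 0.023 between types at 4 months and 0.11 in the interaction, and HDAC9 within IBxDU was −0.13. In the lower-share libraries MEF2D at 4 months was −0.035 and HDAC9 within IBxDU −0.53. The cause of these shifts was not tested.

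Leaving out 1 library gave these ranges between types. At birth they were −0.64 to −0.50 for MEF2D and −0.35 to 0.16 for HDAC9, and at 4 months −0.043 to 0.14 for MEF2D, −0.29 to 0.061 for MEF2C and −1.58 to −1.001 for HDAC9. Between ages they were 0.45 to 0.59 for MEF2C over both types, −0.078 to 0.058 for MEF2D and −1.18 to −0.68 for HDAC9 within IB, and −0.745 to −0.54 for MEF2D, 0.37 to 0.64 for MEF2C and −0.0044 to 0.56 for HDAC9 within IBxDU. The MEF2C interaction ran from −0.16 to 0.18. For log2 HDAC9/MEF2C the ranges were −1.46 to −0.91 at 4 months, −0.22 to 0.26 at birth, −1.72 to −1.21 within IB and −0.52 to 0.0093 within IBxDU. For log2 HDAC9/MEF2D at 4 months the range was −1.70 to −1.07. For log2 MEF2C/MEF2D they were −0.37 to 0.10 at 4 months, 0.36 to 0.59 at birth and 0.91 to 1.32 within IBxDU.

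The 519 genes called at birth became 946 in the lower-share libraries and 314 to 910 without 1 library (314 without IBxDU 425, 910 without IB 503, 863 without IBxDU 412). The 150 called at 4 months became 98 with a pseudocount of 0.5 RPKM, 282 in the lower-share libraries and 122 to 273 without 1 library, the last without IBxDU 732. The 3 genes of the interaction became 0 without scaling, with quantile normalization, without the trend in limma and with voom, 1 without a filter, 16 with library kind as a term, 810 in the lower-share libraries, and 0 to 189 without 1 library. The share of genes called at birth that were higher in IBxDU was 64.5% without IB 503, 59.7% without IBxDU 426 and 58.3% without IBxDU 429.

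No paired analysis was possible because each animal gave 1 library and the labels name no litter. HDAC9 is limited by depth, with as few as 26 reads in a library.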
